A study of Mus musculus with 2 samples.

Results

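Cellular iron storage, import, export and ferroptosis were followed through 10 genes in 2 sham microglia libraries. The genes were Fth1, Ftl1, Ncoa4, Tfrc, Slc11a1, Slc11a2, Slc40a1, Ireb2, Gpx4 and Acsl4, chosen by symbol from the 53801 Ensembl genes of the count files, and all 10 were found and had at least 10 counts in both libraries. The study compared mouse microglia after ischemic stroke with microglia after sham surgery. Only the sham group was analysed here, so the comparisons below are between genes and between the libraries, and none is between conditions. Microglia are the resident macrophages of the brain.

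Each library came from 1 mouse. Both mice carried Cx3cr1(CreER/wt) on a C57BL/6 background, in which a tamoxifen-inducible Cre recombinase replaces one Cx3cr1 allele, and the sample titles call them WT. Both received tamoxifen at 75 mg/kg on each of 4 days. The series record describes males of 8 to 10 weeks, whereas the study's methods give an older age range and both sexes for its stroke surgery. Cells were taken 3 days after the sham operation from the left hemisphere and sorted as CD11c–Ly6G–CD11b+CD45low. The sample titles read sham, and the treatment entry reads none. The Cre allele and the tamoxifen were shared by all samples, so their part in any level below cannot be told apart from the sham state.

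The libraries held 23381026 and 41142609 counts, and 13445 genes had at least 10 counts in both. The summed level of 10 microglia markers was 51226 and 47240 CPM (counts scaled to 1000000 per library) in libraries 1 and 2. Within that list Csf1r (14910 and 5934 CPM) and Sall1 (337.4 and 146.4 CPM) were over 2-fold lower in library 2, and 8 were within 2-fold. The sums for several other cell types were less even. The 10 markers of immature neutrophils summed to 2191 and 35463 CPM and the 9 of mature neutrophils to 3430 and 30190 CPM, although the gate removed Ly6G+ cells, and Ly6g itself stood at 15.4 and 210.5 CPM. Border macrophage markers summed to 709.0 and 337.7 CPM, monocyte markers to 707.4 and 3353 CPM and choroid plexus markers to 24.46 and 370.2 CPM. Most of the monocyte sum in both libraries was Chil3, at 454.6 and 2901 CPM, which is also in the immature neutrophil list. Of the 6 monocyte markers, 2 were over 2-fold higher in library 2, 1 was lower and 3 were within 2-fold. Erythroid markers, 5 of 8 of them at 0 in library 1, summed to 0.385 and 15.4 CPM. The lists of oligodendrocytes, astrocytes, endothelial cells and neurons each summed to less than 250 CPM in both libraries, from 2.69 for neurons to 241.9 for oligodendrocytes. In bulk libraries such as these, fewer cells of a type and less RNA per cell cannot be told apart.

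Iron enters most cells bound to transferrin through the transferrin receptor, crosses the endosomal membrane through a divalent metal transporter, is stored inside a shell built of ferritin heavy and light chains, and leaves through ferroportin. The iron regulatory proteins sense cytosolic iron and bind a short hairpin in mRNA, the iron-responsive element. Bound near the cap it blocks translation, as in the ferritin mRNAs, and bound in the 3′ untranslated region it protects the mRNA from decay, as in that of the transferrin receptor. Ferroptosis is an iron-dependent death by peroxidation of membrane lipids, which GPX4 restrains by reducing the lipid peroxides and to which ACSL4 supplies the oxidisable fatty acids. Microglia take up iron and are among the ferritin-holding cells of the brain.

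The elements are printed because storage, import and export genes share them. They were searched as an unpaired C, a stem of 5 base pairs in which a G-T pair was allowed, and the loop CAGTGN, on the sense strand of the untranslated regions of GENCODE M21 transcripts (GRCm38). The capitals mark the loop.
Fth1, 5′ untranslated region, chr19:9982732-9982760, plus strand: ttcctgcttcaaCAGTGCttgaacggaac
Ftl1, 5′ untranslated region, chr7:45459779-45459807, minus strand: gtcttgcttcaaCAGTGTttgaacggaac
Slc40a1, 5′ untranslated region, chr1:45925465-45925493, minus strand: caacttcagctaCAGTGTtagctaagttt
Tfrc, 3′ untranslated region, chr16:32631219-32631247, plus strand: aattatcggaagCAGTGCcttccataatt
Tfrc, 3′ untranslated region, chr16:32631598-32631626, plus strand: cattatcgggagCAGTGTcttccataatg
Tfrc, 3′ untranslated region, chr16:32631663-32631691, plus strand: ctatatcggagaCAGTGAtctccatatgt
Tfrc, 3′ untranslated region, chr16:32631710-32631738, plus strand: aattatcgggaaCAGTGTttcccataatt

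The search found 7 elements in 4 of the 10 genes. Of all coding genes with an annotated 5′ untranslated region, 31 of 20916 (0.148%) held a match there, and of those with a 3′ untranslated region 129 of 21045 (0.613%) did. Tfrc, with 4, was the only gene in which this search found more than 1 match in one 3′ untranslated region. The loops of Fth1, Ftl1 and Slc40a1 began 99, 90 and 102 bases from the 5′ end of the annotated M21 transcript. That of Fth1 begins upstream of the gene start in the deposited files, so its distance depends on the annotation. The loops of Tfrc lay 895, 1274, 1339 and 1386 bases beyond the stop codon. With Watson-Crick pairs alone, 6 elements were left, because the element of Tfrc at 1274 bases holds 1 G-T pair. Allowing 4 of 5 pairs added 1 in Slc11a2, at a setting that 4.14% of coding genes met in the 3′ untranslated region. At the first setting the remaining members, and all 67 genes of the wider iron and ferroptosis lists described further on, had no match to these letters.

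**Figure D1:**
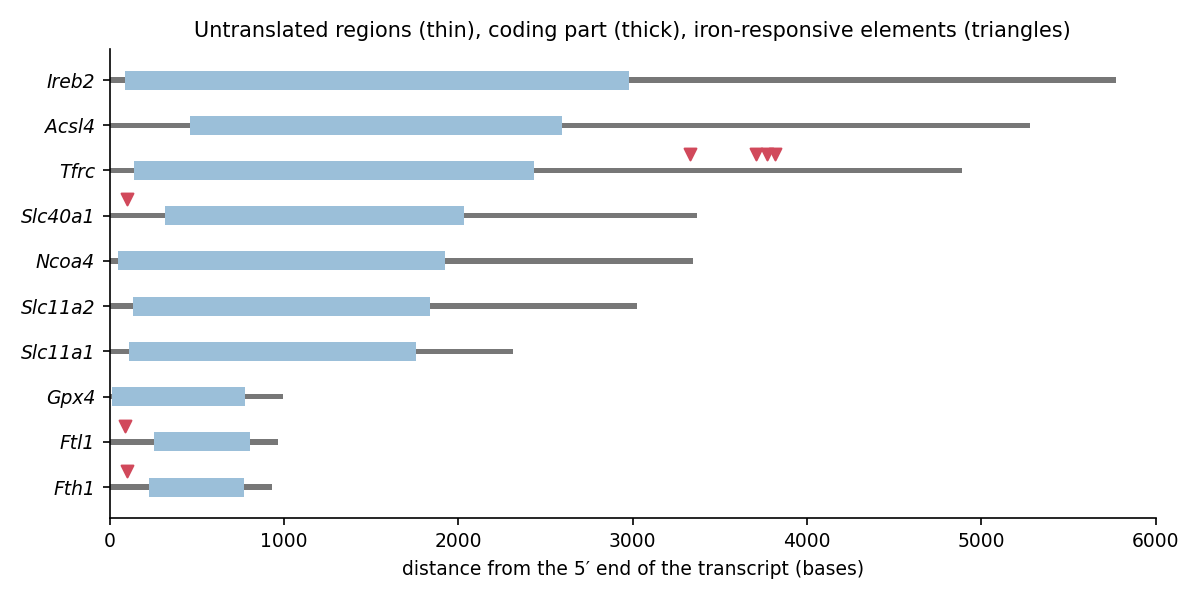
Reference transcript of each of the 10 genes, drawn to scale in bases from the 5′ end, with untranslated regions as thin bars, the coding part as a thick bar and the matched iron-responsive elements as triangles. Fth1, Ftl1 and Slc40a1 carry 1 element near the cap, whereas the 4 of Tfrc lie in a 3′ untranslated region that makes up 50.3% of the transcript.

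The other sequence that carries a function is the selenocysteine codon of Gpx4, printed in capitals with 12 bases on either side. The selenium-containing residue is read from TGA, which otherwise ends translation, and it forms the catalytic site of the enzyme. The same codon of Gpx1, the abundant cytosolic glutathione peroxidase, is given beside it.
Gpx4, chr10:80054725-80054751, plus strand: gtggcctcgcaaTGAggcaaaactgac
Gpx1, chr9:108339439-108339465, plus strand: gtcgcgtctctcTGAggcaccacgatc
In the reference transcript of Gpx4 the in-frame TGA was codon 129 of 253, and in that of Gpx1 codon 47 of 201. Both coding frames ran on through it to a later stop codon.

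Fth1 (ENSMUSG00000024661, chr19:9982703-9985092, plus strand) encodes the heavy chain, which oxidises iron for storage, and had 58604 and 113038 counts in libraries 1 and 2. This was 2506 CPM (95% interval 2486 to 2527) and 2747 CPM (2731 to 2764), a mean of 2627 ± 170.4 CPM (SD, n = 2). Intervals throughout are exact and cover counting error only. The libraries differed by a log2 ratio, library 2 over library 1, of 0.13 (0.118 to 0.147), which is small beside the edgeR biological coefficient of variation of 0.479 between the libraries over 13455 genes. This ratio was 0.38 with TMM factors, which scale on the bulk of the genes, and its direction turned to −0.06 after the adjustment for GC content and length described below.

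Ftl1 (ENSMUSG00000050708, chr7:45457944-45459884, minus strand) encodes the light chain, which favours the mineral core, and had 15446 and 34558 counts. These were 660.6 CPM (650.2 to 671.1) and 840.0 CPM (831.1 to 848.9), a mean of 750.3 ± 126.8 CPM. Its log2 ratio was 0.35 (0.319 to 0.374) on CPM, 0.60 with TMM and 0.62 with DESeq2 size factors. The chains together took 73.7% and 76.3% of the counts of the 10 genes, which in turn made up 0.430% and 0.470% of all counts.

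Per kilobase of the reference transcript, Fth1 stood at 2698 and 2957 CPM and Ftl1 at 682.5 and 867.7 CPM. Heavy over light chain was then 3.95 and 3.41, so the heavy chain was the higher in both libraries as counted. Per kilobase of all annotated exons the same ratio was 1.47 (1.44 to 1.49) and 1.26 (1.25 to 1.28). The second length is too long for Fth1, because its exons sum to 3469 bases in M21, whereas the gene spans 2390 bases in the deposited files. It was the only one of the 10 genes whose bounds in M21 differed from those in the files. In the other genes the exon sum was also the longer, from 1.02 times the reference transcript for Acsl4 to 2.80 times for Ncoa4. Levels and ratios per kilobase of exon below depend on this choice of length, which their intervals do not cover.

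Reads of Ftl1 are not easily placed. Of its 894 windows of 75 bases, the read length, 758 (84.8%) also occurred in a transcript of another annotated gene, among them Ftl1-ps1. The 8 genes that shared these windows held 836 and 2468 counts, which is 5.13% and 6.67% of the sum with Ftl1. An antisense gene, Gm10252, overlapped 26.5% of its exon bases and had 7 counts in each library. Fth1 shared 33 of 855 windows (3.86%) with Gm6977, which had 135 and 219 counts. The level of Ftl1 is therefore less certain than that of Fth1, since the treatment of reads with several matches was not given in the sources used here. If such reads were left out of the counts, Ftl1 would be undercounted. The counts on the copies do not measure such a loss. The ratio of heavy to light chain, and their order, are uncertain to the same extent. Of 15 genes named as ferritin or Gpx4 copies, 9 were at 0 in both libraries, and Ftl1-ps1 with 262 and 722 counts and Ftl2-ps with 297 and 695 counts held the most.

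Ncoa4 (ENSMUSG00000056234, chr14:32159865-32179855, plus strand) encodes the receptor that carries ferritin to the lysosome and so releases its iron. It had 2370 and 6775 counts, or 101.4 CPM (97.32 to 105.5) and 164.7 CPM (160.8 to 168.6), with a mean of 133.0 ± 44.76 CPM. Its log2 ratio of 0.70 (0.632 to 0.768) was the highest of the 10, and it was 0.95 with TMM. Per kilobase of the reference transcript, Fth1 was 89.0 times Ncoa4 in library 1 and 60.0 times in library 2. Ncoa4 shared 1654 of 3269 windows (50.6%) with Gm6768, which had 57 and 138 counts. The level of Ncoa4 and its ratio to Fth1 are therefore uncertain in the same way as those of Ftl1.

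**Figure D2:**
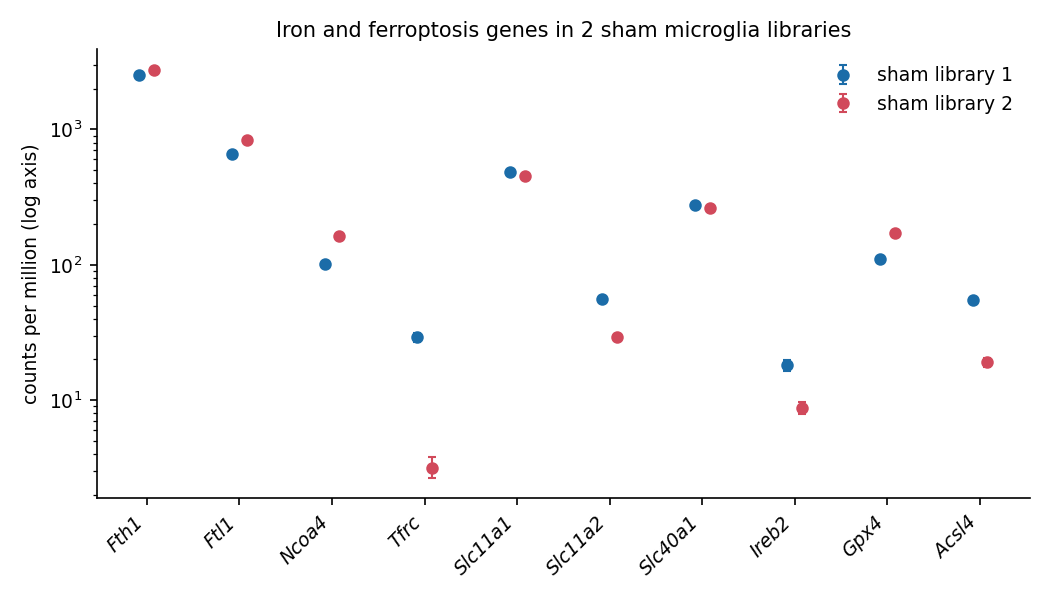
Level of each gene in CPM (log axis) in sham library 1 and sham library 2, ordered by role from storage and release through import, export and regulation to ferroptosis, with exact 95% Poisson intervals as bars, most of them smaller than the points. Tfrc shows the widest gap, 29.2 against 3.18 CPM, whereas Slc11a1 and Slc40a1 nearly coincide.

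Among the import genes the transferrin receptor differed most between the libraries. Tfrc (ENSMUSG00000022797, chr16:32608920-32632794, plus strand) had 682 counts in library 1 and 131 in library 2. These were 29.2 CPM (27.02 to 31.44) and 3.18 CPM (2.66 to 3.78), and their mean of 16.2 ± 18.4 CPM had an SD larger than itself. Tfrc was thus 9.16-fold higher in library 1, with a log2 ratio of −3.20 (−3.48 to −2.92). The ratio was −2.95 with TMM factors, −2.92 with DESeq2 size factors and −3.09 after the adjustment for GC content and length. It shared no window with another annotated gene, nor did Slc11a1, Slc40a1, Ireb2 or Acsl4.

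Slc11a1 (ENSMUSG00000026177, chr1:74375195-74386062, plus strand) encodes NRAMP1, the metal transporter of the phagosome membrane in macrophages and neutrophils. Its counts were 11308 and 18777, or 483.6 CPM (474.8 to 492.6) and 456.4 CPM (449.9 to 463.0), with a mean of 470.0 ± 19.3 CPM. The log2 ratio was −0.08 (−0.117 to −0.050) on CPM and turned to 0.17 with TMM and 0.26 after adjustment. Its level was thus nearly the same in both libraries on CPM. The summed neutrophil markers were 16.2-fold and 8.80-fold higher in library 2, and the part of neutrophil RNA in the Slc11a1 level was not tested.

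Slc11a2 (ENSMUSG00000023030, chr15:100387898-100425072, minus strand) encodes DMT1, the transporter that takes iron out of the endosome after transferrin uptake. It had 1310 and 1207 counts, or 56.0 CPM (53.04 to 59.15) and 29.3 CPM (27.71 to 31.04), a mean of 42.7 ± 18.9 CPM. The log2 ratio of −0.93 (−1.05 to −0.82) became −0.68 with TMM and −0.07 after adjustment. Per kilobase of the reference transcript the phagosomal transporter exceeded the endosomal one 11.3 times in library 1 and 20.3 times in library 2. The antisense gene Gm5475, with 8 and 12 counts, shared 0.678% of its windows.

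Slc40a1 (ENSMUSG00000025993, chr1:45908068-45926523, minus strand) encodes ferroportin, the iron exporter. Its 6465 and 10799 counts gave 276.5 CPM (269.8 to 283.3) and 262.5 CPM (257.5 to 267.5), a mean of 269.5 ± 9.92 CPM. This was the smallest SD relative to its mean among the 10 genes. The log2 ratio of −0.08 (−0.120 to −0.030) on CPM turned to 0.17 with TMM. Export exceeded transferrin receptor mRNA 13.8 times in library 1 and 120 times in library 2 per kilobase of the reference transcript, and the gap between these ratios came almost wholly from Tfrc.

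Ireb2 (ENSMUSG00000032293, chr9:54863789-54912530, plus strand) encodes IRP2, which binds the elements printed above and is degraded when iron is plentiful. Its counts were 424 and 359, or 18.1 CPM (16.45 to 19.95) and 8.73 CPM (7.85 to 9.68), a mean of 13.4 ± 6.65 CPM. The log2 ratio of −1.06 (−1.26 to −0.85) became −0.81 with TMM and −0.49 after adjustment. Aco1, which encodes the other iron regulatory protein IRP1, stood at 67.5 and 33.3 CPM. Per kilobase of exon Aco1 was 7.85 times Ireb2 (7.05 to 8.76) in library 1 and 8.04 times (7.15 to 9.06) in library 2, so their ratio held while both levels were lower in library 2. Fbxl5, the iron-sensing adaptor for IRP2 degradation, went the other way with 59.9 and 92.3 CPM, and exceeded Ireb2 3.22 times (2.88 to 3.59) in library 1 and 10.3 times (9.24 to 11.5) in library 2.

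Gpx4 (ENSMUSG00000075706, chr10:80047166-80056439, plus strand), the lipid hydroperoxide reductase that restrains ferroptosis, had 2568 and 7109 counts. These were 109.8 CPM (105.6 to 114.2) and 172.8 CPM (168.8 to 176.9), a mean of 141.3 ± 44.5 CPM, with a log2 ratio of 0.65 (0.588 to 0.719) that became 0.90 with TMM. It shared 509 of 921 windows (55.3%) with other annotated transcripts, among them that of Gpx4-ps2, which had 29 and 61 counts. The level of Gpx4 and its ratios to Gpx1 and Acsl4 given below are therefore uncertain in the same way as those of Ftl1. Gpx1 was 7.86 times Gpx4 (7.54 to 8.20) per kilobase of exon in library 1 and 7.44 times (7.25 to 7.63) in library 2.

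Acsl4 (ENSMUSG00000031278, chrX:142317993-142390535, minus strand), which loads arachidonic and related fatty acids onto coenzyme A, had 1283 and 783 counts. These were 54.9 CPM (51.91 to 57.96) and 19.0 CPM (17.72 to 20.41), a mean of 37.0 ± 25.3 CPM, with a log2 ratio of −1.53 (−1.66 to −1.40). The ratio became −1.28 with TMM and −0.97 after adjustment. Gpx4 over Acsl4, the reductase over the enzyme that supplies its substrate, was 10.6 in library 1 and 48.2 in library 2 per kilobase of the reference transcript. Division by length does not change the gap between libraries. The adjustment narrowed it, with log2 ratios of 0.69 for Gpx4 and −0.97 for Acsl4. Lpcat3, which places these fatty acids into phospholipids, held at 313.5 and 317.2 CPM.

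Set in order per kilobase of exon, the first 6 places were the same in both libraries: Fth1, Ftl1, Slc11a1, Gpx4, Slc40a1 and Ncoa4, with means of 757.3, 559.9, 126.9, 82.0, 29.9 and 14.2 CPM per kilobase. None of these neighbours overlapped over the libraries. The places of Ftl1, Gpx4 and Ncoa4 carry the uncertainty of their shared windows (84.8%, 55.3% and 50.6%), which this comparison does not cover. Acsl4 at 6.84 and Slc11a2 at 6.72 overlapped each other, as did Slc11a2 and Tfrc, and Tfrc at 2.62 and Ireb2 at 1.42, so those neighbours were not separated by the spread between libraries. Acsl4 and Slc11a2 each lay above Ireb2 without overlap. Per kilobase of the reference transcript only Acsl4 and Slc11a2 changed places, with Slc11a2 the higher at a mean of 14.1 CPM per kilobase.

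Between the libraries, 3 of the 10 genes, Tfrc, Acsl4 and Ireb2, were over 2-fold lower in library 2, where 25.9% of the 13445 counted genes were so. None of the 10 was over 2-fold higher, where 5.74% of all counted genes were. The median log2 ratio of the 10 genes was −0.08 and that of all counted genes −0.26, which TMM factors moved to −0.01. The number of genes that were lower is thus near what all genes showed, while Tfrc lay at its far end, where 0.677% of counted genes had a ratio as low or lower.

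The ratios followed transcript length. Over 13439 counted genes the Spearman correlation of the log2 ratio with the length of the longest transcript was −0.38, and over the 10 genes it was −0.67, given as descriptions from 1 pair of libraries. The 13439 genes were cut by length into 10 bins. The bin with transcripts of 4970 to 6440 bases, which held Ireb2 and Acsl4, had a median of −0.96, and 48.1% of its genes were over 2-fold lower in library 2. Within it 45.4% of genes were as low as Ireb2 or lower and 28.9% as low as Acsl4 or lower. The bin of 4225 to 4970 bases, with a median of −0.77, held Tfrc, Slc11a2 and Ncoa4, which sat far apart. There 17 of 1344 genes (1.26%) were as low as Tfrc or lower, 43.2% as low as Slc11a2 or lower, and 94.8% as low as Ncoa4 or lower. The ratio also moved with GC content, but in opposite directions, with a Spearman correlation of −0.14 over all genes and 0.65 over the 10.

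To adjust for both, each gene's ratio was set against the median ratio of genes of like GC content and length, in 10 bins of each. This left 1 of the 10 genes over 2-fold lower, Tfrc at −3.09, against 12.7% of 13439 genes. It left 1 over 2-fold higher, Ncoa4 at 1.15, against 9.7%. Slc11a2 came to −0.07, Slc40a1 to 0.04, Ftl1 to 0.38 and Gpx4 to 0.69. The ratios of one gene to another given above and below were not adjusted in this way, so their gaps between libraries include any trend with length. Why long transcripts were lower in library 2 was not tested.

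**Figure D3:**
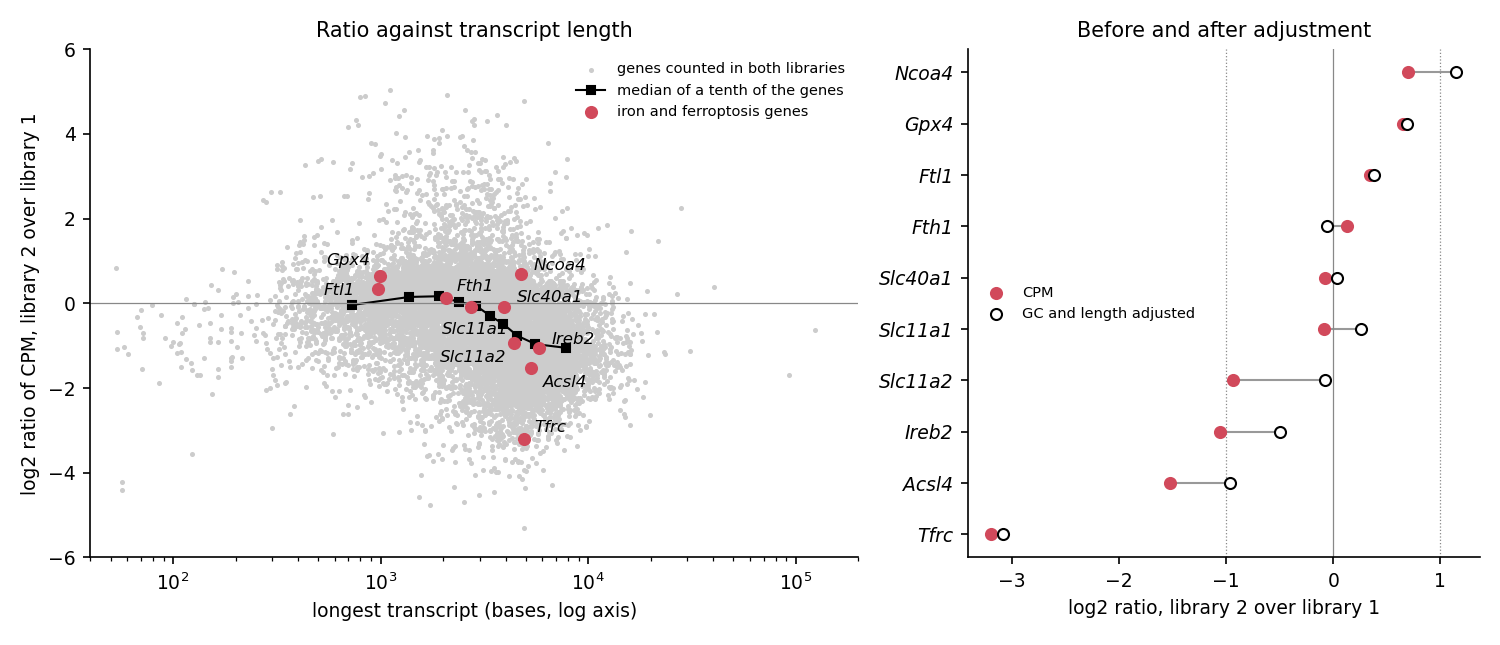
On the left, the log2 ratio of CPM, library 2 over library 1, against the length of the longest transcript (bases, log axis) for all genes counted in both libraries (grey), the median of each of the 10 length bins (black) and the 10 genes (red). On the right, the same ratio of the 10 genes on CPM (red) and after adjustment for GC content and length (open), with dotted lines at 2-fold; Slc11a2 moves from −0.93 to −0.07 while Tfrc stays below −3, and the signs of Fth1, Slc11a1 and Slc40a1 turn.

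The wider pathway was described by 67 other genes in 11 lists, of which 55 were counted in both libraries. Of these, 3 (5.45%) were over 2-fold higher and 16 (29.1%) over 2-fold lower in library 2, with a median log2 ratio of −0.10, where 5.74% and 25.9% of all counted genes were so. Ftmt, Gpx2, Gpx5 and Gpx6 were at 0 in both. After adjustment 6 were higher and 12 lower, where 9.7% and 12.7% of all genes were so.

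The list for uptake had the lowest median. Of 6 counted genes for transferrin uptake and iron entry, 4 were over 2-fold lower in library 2 before and after adjustment, with medians of −1.35 and −1.15, where 25.9% and 12.7% of all genes were so. Steap3, the endosomal ferrireductase that works with the transferrin receptor, stood at 6.63 and 1.22 CPM, a log2 ratio of −2.45 that became −1.21 after adjustment. The metal importer Slc39a14 stood at 25.5 and 4.67 CPM (−2.45, or −1.21 after adjustment) and Slc39a8 at 52.2 and 18.6 CPM (−1.49, or −1.52). The reductase Steap4 stood at 21.2 and 9.19 CPM (−1.21, or −1.08), and its ratio of −0.96 with TMM was within 2-fold. Hfe, which encodes a partner of the transferrin receptor, had the highest level of the list and differed little, with 409.5 and 347.0 CPM.

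In the heme list 3 of 9 genes were over 2-fold lower. Lrp1, a receptor for heme bound to hemopexin among many ligands, stood at 1034 and 170.3 CPM (log2 ratio −2.60, or −0.62 after adjustment). Cd163, the receptor for hemoglobin bound to haptoglobin and a marker of border macrophages, stood at 48.5 and 10.8 CPM (−2.17, or −1.25 after adjustment). The heme exporter Flvcr1 stood at 20.8 and 7.17 CPM (−1.54, or −1.19). The border macrophage markers, of which Cd163 is 1, summed to 0.476 times their library 1 level in library 2, and their part in these values was not tested.

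Mitochondrial iron genes had a median of −0.10, with 2 of 7 over 2-fold lower. The mitochondrial importer Slc25a28, at 17.2 and 3.84 CPM (−2.17, or −1.33 after adjustment), was 1 of them. Iscu, the scaffold of iron-sulfur cluster assembly, was the highest of the list with 155.0 and 207.5 CPM. Among iron chaperones and export genes, 1 of 5 counted, Aco1, was over 2-fold lower on CPM at −1.02, but within 2-fold with TMM (−0.77), DESeq2 size factors (−0.75) and adjustment (−0.28). After adjustment 1 of that list was over 2-fold higher, Fbxl5 at 1.04. The chaperone Pcbp1 was level at 99.6 and 100.9 CPM.

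The iron-binding proteins of neutrophil granules went the opposite way. Ltf, which encodes lactoferrin, stood at 414.5 and 8260 CPM (log2 ratio 4.32) and Lcn2, which encodes the siderophore binder lipocalin-2, at 250.3 and 2985 CPM (3.58). Both belong to the immature neutrophil markers, whose 10 genes were all over 2-fold higher in library 2. In library 2 these 2 genes, at a summed 11245 CPM, drew more counts than the 10 iron and ferroptosis genes, at 4704 CPM, whereas in library 1 they summed to 664.9 against 4297 CPM.

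Around Gpx4, glutathione supply split by gene. Gclc, the catalytic subunit of the rate-limiting enzyme of glutathione synthesis, stood at 87.1 and 9.38 CPM (log2 ratio −3.22, or −2.91 after adjustment), a gap as wide as that of Tfrc. Its modifier subunit Gclm stood at 28.4 and 8.75 CPM (−1.70, or −1.18 after adjustment). The cystine transporter heavy chain Slc3a2 was the highest of the list with 607.4 and 765.5 CPM. The remaining 4 of the 6 genes were within 2-fold.

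Selenoprotein synthesis genes had a median of −0.02. There Eefsec, the elongation factor for selenocysteine, stood at 57.8 and 46.3 CPM, and 1 of 6, Sepsecs at 18.01 and 8.75 CPM, was over 2-fold lower on CPM (−1.04) but within 2-fold with TMM (−0.79) and after adjustment (−0.33). Of the 4 suppressors that act without glutathione, only Vkorc1l1, at 18.1 and 5.69 CPM (−1.67, or −1.22 after adjustment), was over 2-fold apart on CPM. Aifm2, at 2.14 and 4.08 CPM (0.93), was over 2-fold higher in library 2 with TMM (1.18) and after adjustment (1.135). Dhodh was highest with 33.7 and 28.8 CPM. Of the other glutathione peroxidases 2 of 7 were counted. Gpx1 stood at 721.6 and 1074 CPM, and Gpx3, the secreted enzyme, was over 2-fold lower in library 2 with 43.1 and 16.4 CPM (−1.39, or −1.53 after adjustment).

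Among 5 counted drivers of lipid peroxidation 1 was over 2-fold apart, the lipoxygenase Alox15 with 5.90 and 15.6 CPM (log2 ratio 1.40). Lpcat3 had the highest level of that list. Of the other long-chain acyl-CoA synthetases, Acsl5 was highest with 122.4 and 112.8 CPM, and Acsl1 stood at 52.5 and 24.7 CPM (−1.09, but within 2-fold at −0.84 with TMM and −0.38 after adjustment). Acsl5 over Acsl4 per kilobase of exon was 2.48 (2.32 to 2.65) in library 1 and 6.58 (6.10 to 7.11) in library 2.

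**Figure D4:**
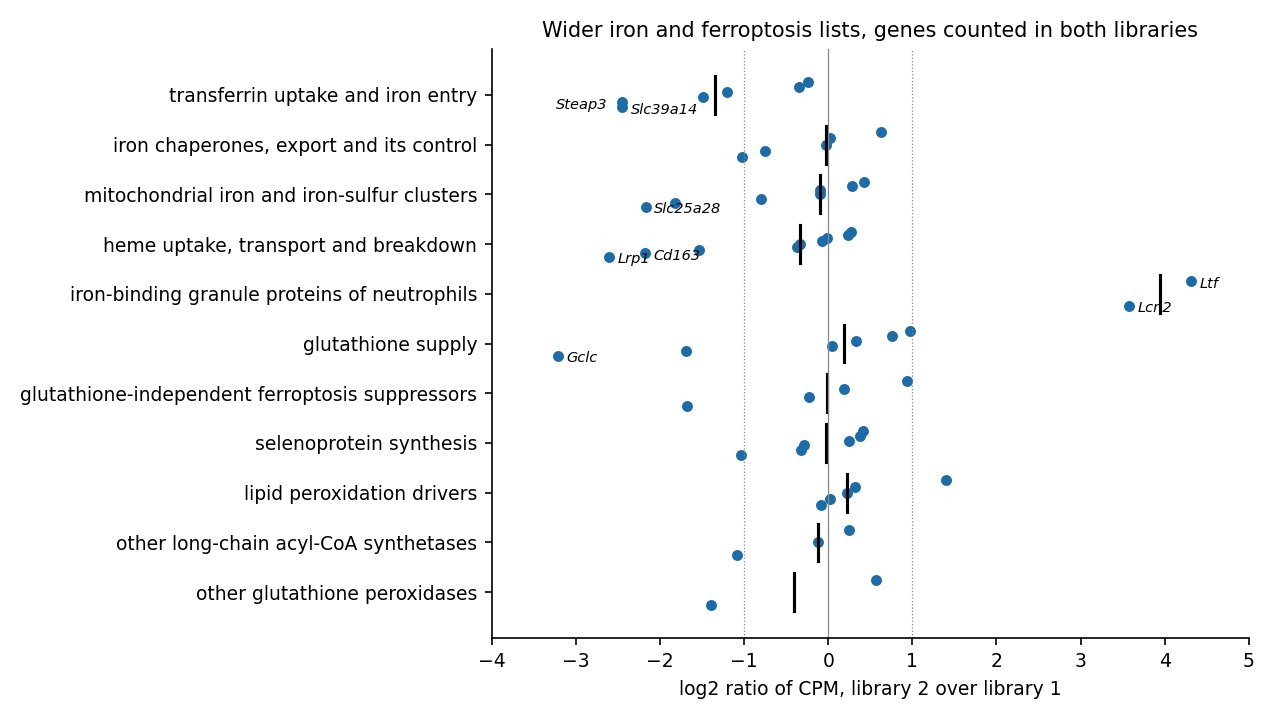
Log2 ratio of CPM, library 2 over library 1, for the 55 genes of the 11 wider lists counted in both libraries, with a point per gene, a black bar at each list's median and dotted lines at 2-fold; genes past 4-fold are named. The transferrin uptake list lies lowest with a median of −1.35, and the neutrophil granule list highest with Ltf at 4.32 and Lcn2 at 3.58.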

How the data were processed

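Sorted microglia were profiled by bulk RNA-seq with SMART-Seq HT cDNA and Nextera XT libraries, read as paired-end 75 bp. The authors mapped reads to GRCm38 with HISAT2 and deposited raw counts per Ensembl gene from HTSeq, without pooling; versions, annotation release, strand setting and the treatment of multiply mapped reads were not given in the sources used here. CPM was the count divided by the file total of 23381026 or 41142609, times 1000000. A count of 3, the floor, was 0.128 and 0.0729 CPM. Intervals were exact at 95% (Poisson for a CPM, Clopper-Pearson for a ratio). The replicates were separate mice of 1 group, so nothing was tested between groups.

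Symbols, lengths and sequences came from GENCODE M21, where 53706 of 53801 IDs matched and 97.1% of those had the same bounds as in the files. The reference transcript was the one tagged CCDS with the best support level and lowest identifier. Sequence sharing was searched among annotated transcripts only. The adjustment used 10 bins each of GC content and length with at least 20 genes; in simulated data a shift of 3 (log2) given to 200 of 13439 genes came back as 3.01. Spread was estimated with edgeR 4.0.16 (R 4.3.3); DESeq2 1.42.0 gave alternative size factors, and the remaining steps used Python 3.11.15 with scipy 1.17.1. Named were the 10 genes, the gene of highest level in each wider list, genes over 2-fold apart with a mean of at least 100 counts, genes at 0 in both libraries and copies of members. A few others (Ly6g, Fbxl5, Gm6977, Gm6768, Gm5475 and Gm10252) were named after their values were seen, and 1 gene that the rule names is not reported here. The genes and lists were chosen with earlier results of these data known.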

Additional observations from a re-analysis of the deposited data

How the results depend on the processing

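With 2 libraries of 1 group, no result here is a test. The count of 3 genes over 2-fold apart was 2 or 3 under each scaling and was 6 at a fold of 1.5. The median log2 ratio of the 10 genes, −0.08 on CPM, was 0.17 with TMM, 0.20 (0.195) with DESeq2 size factors, 0.01 (0.0104) when the neutrophil markers were left out of the totals and −0.01 (−0.0104) after the adjustment for GC content and length, so its sign is not settled. The biological coefficient of variation of 0.479 was 0.550 without the filter on low counts, and the median DESeq2 estimate gave 0.287. The number of genes counted lay between 14063 and 15118 with 1 library left out. The adjustment for GC content and length of the count of genes apart, and the use of the reference transcript for levels per kilobase, which moved 8 of 10 levels, were chosen after seeing the data. Leaving out a library cannot move a mean of 2 values past 1 SD and so says nothing of stability. No paired analysis was possible because both libraries belong to 1 group. Depth limits Tfrc most, with 131 counts in library 2.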
